A study of Homo sapiens with 5 samples.

Results

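Neurotransmitter receptor genes encode the proteins with which a cell senses glutamate, GABA, glycine, acetylcholine, serotonin and dopamine. The set was defined by gene symbol and takes in the subunits of the glutamate, GABA-A, glycine, nicotinic and 5-HT3 channels and the G protein-coupled receptors for glutamate, GABA, serotonin and dopamine. It held 90 of the 27139 genes in the deposited tables, of which 63 are ligand-gated channel subunits and 27 are G protein-coupled. Only the symbol decided membership, but the set was proposed after GRIA2, DRD1 and CHRND had been seen to differ between the cultures. Those 3 genes are therefore described with no test.

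The cells were H1, an established human embryonic stem cell line, labelled WT in every library and collected at day 30 after differentiation. YAPi cultures (3 libraries) had received the combination labelled YAP inhibitor + Activin, with a treatment time of 24 h. GiWi cultures (2 libraries) had received the combination labelled GSK3i+Wnt/β-catenin inhibitor, with a treatment time of 48 h, so agents and time differed together. YAP is the transcriptional coactivator held back by the Hippo pathway, Activin is a ligand of the TGF-beta family, and GSK3 inhibition activates Wnt signalling. The study set cultures made by these protocols side by side as sources of cardiomyocytes. All libraries came from 1 line, and nothing in the labels says that replicates were separate cultures. The p-values below therefore cover only library-to-library spread, possibly technical.

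Ionotropic receptors are channels assembled from several subunits, so the subunits made decide which channel can form and how it behaves. AMPA, NMDA and kainate receptors carry fast excitatory glutamate signals, GABA-A and glycine receptors carry chloride, and nicotinic receptors open to acetylcholine in muscle, in autonomic ganglia and in brain. Metabotropic receptors act through G proteins and are slower. In the heart, intrinsic ganglia signal through nicotinic receptors, and several of the other families are known chiefly from neurons, with some reported in muscle, endocrine cells and epithelia.

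The 250 bases upstream of the RefSeq start are shown for the 3 genes from which the set was proposed, in the 5′ to 3′ direction of each gene, from the GRCh38.p14 promoter table. The expression tables are in hg19, so these coordinates are not to be read against theirs. Capitals mark exact matches, on either strand, to CANNTG (the E-box), to GGACAG and to the RE1 element, the site of the repressor REST. The GRIA2 window is the one of its 3 listed starts that held RE1, at chr4:157220369-157220618 on the plus strand. The DRD1 window lies at chr5:175444183-175444432 on the minus strand, and the CHRND window at chr2:232525910-232526159 on the plus strand.
GRIA2: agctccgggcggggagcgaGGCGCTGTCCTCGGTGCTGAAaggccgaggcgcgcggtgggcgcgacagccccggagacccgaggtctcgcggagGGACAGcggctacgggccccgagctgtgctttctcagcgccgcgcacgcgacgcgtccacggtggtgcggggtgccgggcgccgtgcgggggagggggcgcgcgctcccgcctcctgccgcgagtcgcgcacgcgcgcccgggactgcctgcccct
DRD1: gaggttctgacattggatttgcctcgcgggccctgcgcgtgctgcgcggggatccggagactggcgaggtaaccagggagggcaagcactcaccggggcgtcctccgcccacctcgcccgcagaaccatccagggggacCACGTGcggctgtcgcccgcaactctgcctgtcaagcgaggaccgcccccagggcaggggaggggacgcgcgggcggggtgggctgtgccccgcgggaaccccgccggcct
CHRND: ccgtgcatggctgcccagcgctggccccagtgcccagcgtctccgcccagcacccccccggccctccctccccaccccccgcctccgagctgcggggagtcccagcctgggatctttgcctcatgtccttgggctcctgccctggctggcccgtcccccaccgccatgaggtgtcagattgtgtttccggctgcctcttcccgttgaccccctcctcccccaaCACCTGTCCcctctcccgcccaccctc
The first capital run of GRIA2 is the RE1 match, read on the opposite strand, and it holds a GGACAG match within it. The later run is another GGACAG. DRD1 has an E-box, and in CHRND an E-box runs into a GGACAG on the opposite strand.

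RE1 was found in 2 of 35116 RefSeq windows, 0.0057%, and GRIA2 was the only receptor gene with it among the 67 that matched the table, which are not the 67 tested below. It was searched on both strands in 1 exact form, added after the planned motifs, that contains the shorter TCAGCACC and GGACAG. An E-box was found in 58.1% of the 93 windows of these receptor genes and in 61.8% of all windows. GGACAG was found in 24.7% of the receptor windows and in 17.2% of all. One arm of the RE1 element, TCAGCACC, was found upstream of DRD3, GRIA2 and GRM2, in 3.23% of receptor windows and 1.32% of all. The CRE palindrome TGACGTCA was upstream of GABBR1 alone among the receptor genes (1.08% against 1.65% of all windows), and the TEAD core GGAATG was in 12.9% of receptor windows and 11.9% of all. These matches describe letters in a window and say nothing of binding.

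Library depth was 48825439, 44614520 and 43661188 exon counts in YAPi and 48904302 and 48309765 in GiWi. Levels below are counts scaled to a common depth (CPM) after TMM scaling, which corrects for differences in library composition, and levels between genes are compared only per kilobase of transcript. At these depths 3 counts correspond to 0.0637 to 0.0742 CPM in YAPi and 0.056 to 0.058 CPM in GiWi. Cardiomyocyte markers were detected in every library, with all 16 genes above 0. Their sum was 6504, 6613 and 2923 CPM in YAPi, against 7651 and 7447 CPM in GiWi. YAPi replicate 3 stood apart. Compared with YAPi replicates 1 and 2, the median log2 difference was -1.30 for its cardiomyocyte genes and -1.29 for its macrophage genes, while the median over all tested genes was -0.004. Where leaving out this library changed whether a receptor gene passed the test, results are given with and without it.

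Receptor genes were expressed at low to moderate levels. Of the 90 members, 39 reached a mean of 1 CPM in the higher group and 10 reached 10 CPM. The highest value in any library was 53.5 CPM, for GRIA4 in GiWi replicate 1. Enough counts for a test were present for 67 members. The other 23 were low throughout. Of these, 7 had 0 counts in all 5 libraries (GABRR3, GLRA1, HTR3B, HTR3C, HTR3D, HTR3E and HTR5A), and 16 had summed counts of at most 17 over the 5 libraries. Untested members include all 5 subunits of the 5-HT3 channel.

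Of the 67 tested receptor genes, 19 were called higher in YAPi and 24 lower, which is 64.2%. A call is an adjusted p under 0.05 in edgeR (quasi-likelihood test). Over all 17634 genes tested, 57.1% were called, 30.2% higher and 26.9% lower, against 28.4% higher and 35.8% lower for the receptor genes. Changes of at least 2-fold were called higher for 17 of the 67 receptor genes and lower for 21. Over all 17634 genes these were 2679 (15.2%) and 1436 (8.14%). The libraries of the groups did not overlap for 52 of the 67 receptor genes, beside 13373 of all 17634 genes tested (75.8%). The median log2 fold change was 0.00 over the tested receptor genes and 0.01 over all tested genes. Without the 3 genes from which the set was proposed, which these counts include, 19 of 64 were called higher and 21 lower. The counts also include members that passed only through the group where they were high. In bulk RNA, fewer cells of a type and less RNA per cell cannot be told apart, here and in every result below. Without YAPi replicate 3, 22 of 65 receptor genes were higher and 28 lower, beside 13115 of 17519 genes called (74.9%). Leaving out GRIA2, DRD1 and CHRND there as well gave 22 higher and 25 lower. Without GiWi replicate 1, 28 receptor genes were called, 9 of them higher, beside 6070 of all genes. Without GiWi replicate 2, 27 were called, 9 of them higher, beside 5909 of all genes. The full set of libraries called 10065.

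**Figure D1:**
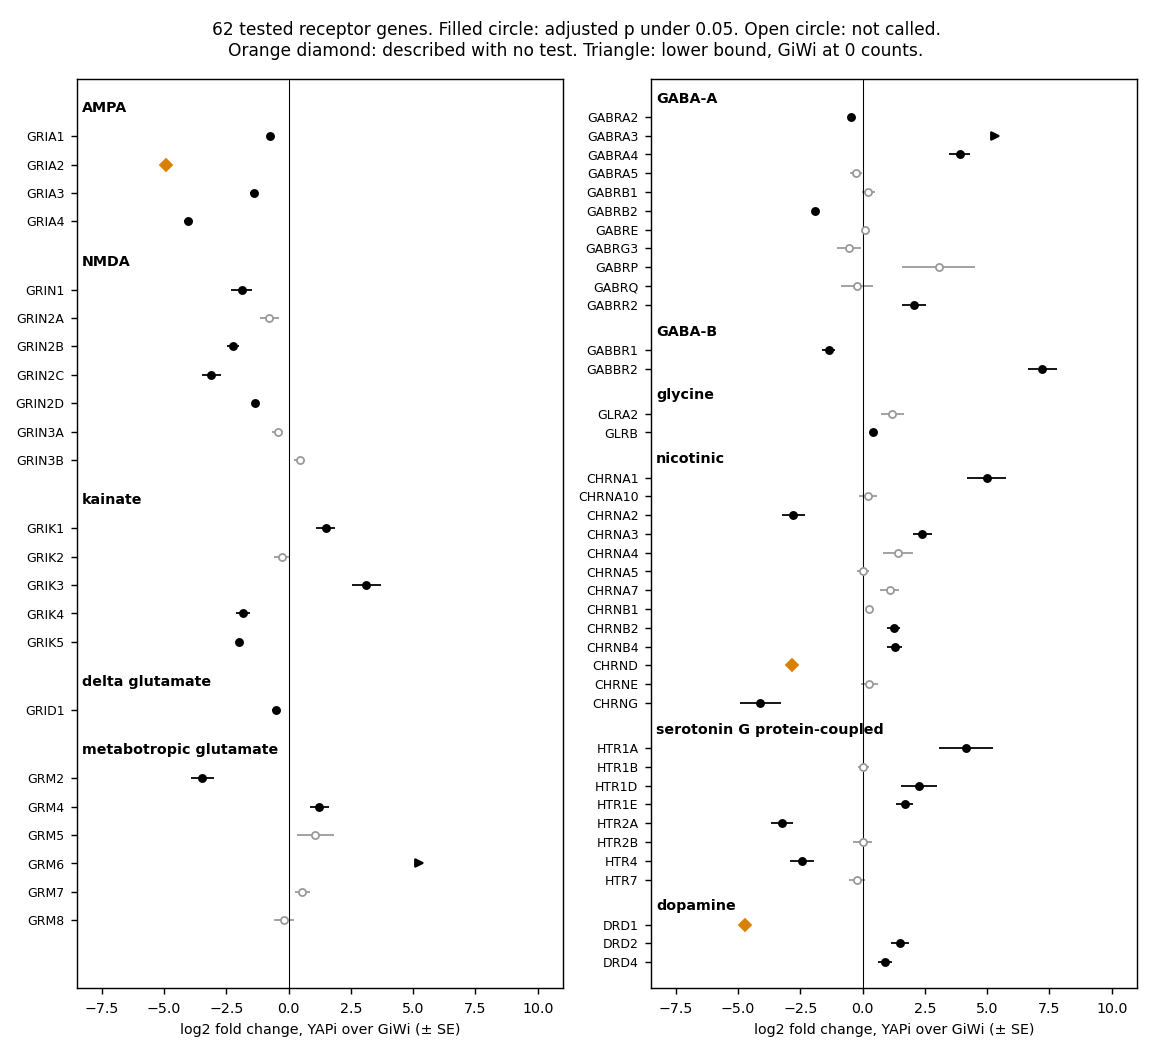
Log2 fold change of YAPi over GiWi (horizontal axis, bars ± SE from edgeR) for 62 of the 67 tested receptor genes, grouped by receptor class. Filled circles passed an adjusted p of 0.05, open circles did not, orange diamonds mark GRIA2, DRD1 and CHRND, which have no test here, and triangles mark GABRA3 and GRM6, at 0 counts in GiWi, at their lower bound. AMPA and NMDA genes that passed lie left of 0, while kainate, metabotropic glutamate, GABA-A, GABA-B, nicotinic, serotonin and dopamine genes lie on both sides.

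All 18 ionotropic glutamate receptor genes were tested. Leaving out GRIA2, which has no test here, 11 of 17 were called lower in YAPi, 2 higher and 4 not called, with a median log2 fold change of -1.05. That is 64.7% lower and 11.8% higher, beside 26.9% lower and 30.2% higher over all genes tested. The 11 include GRIN1, GRIN2B and GRIN2C, which reached the test only through their GiWi counts. Of the same 17, 13 were called lower and 2 higher without YAPi replicate 3, beside 6394 lower and 6721 higher of 17519 genes. Fewer were called without GiWi replicate 1 or without GiWi replicate 2. Fewer of all genes were called there too, with 1 library left in that group. GRIA1, GRIA3 and GRIA4 were called lower in YAPi, and no NMDA gene was called higher. The kainate genes split. Of the 18 neuron markers, 11 were called higher and 5 lower, and ELAVL4 was at 0 in GiWi. Their sum was 468.6, 468.8 and 347.4 CPM in YAPi, against 143.5 and 144.1 CPM in GiWi. STMN2 alone gave 285.8, 285.8 and 181.7 CPM in YAPi, against 13.2 and 13.6 CPM in GiWi, and the sum without it was 182.7, 182.9 and 165.8 CPM in YAPi, against 130.3 and 130.5 CPM in GiWi. The part of neuron content in the glutamate receptor levels was not tested.

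GRIA2, which encodes the AMPA subunit whose edited form makes the channel impermeable to calcium, had 0.425, 0.353 and 0.396 CPM in YAPi, against 12.8 and 11.4 CPM in GiWi. Every YAPi library was far below both GiWi libraries (log2 fold change -4.94 ± 0.14, no test). GRIA4, an AMPA subunit prominent early in brain development in rodents, had 2.85, 2.73 and 4.15 CPM in YAPi, against 53.5 and 52.3 CPM in GiWi. This was the most abundant receptor transcript per kilobase in GiWi, and it fell in YAPi (log2 fold change -4.03 ± 0.17, edgeR adjusted p = 5.92e-05). GRIA3, another AMPA pore subunit, had 1.78, 1.46 and 1.73 CPM in YAPi, against 4.25 and 4.37 CPM in GiWi. The groups were apart and the gene fell in YAPi (log2 fold change -1.38 ± 0.15, edgeR adjusted p = 0.00108). The smallest AMPA difference was in GRIA1, a subunit inserted during synaptic strengthening in rodents, with 3.76, 3.67 and 4.35 CPM in YAPi, against 6.16 and 6.92 CPM in GiWi. Those groups were also apart, and it fell in YAPi (log2 fold change -0.74 ± 0.13, edgeR adjusted p = 0.00565, but 0.0595 without GiWi replicate 2).

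The fall was unequal, so the make-up of the AMPA pool differed. Per kilobase, the 4 AMPA genes summed to 1.6, 1.48 and 1.92 CPM per kilobase in YAPi, against 13.9 and 13.6 CPM per kilobase in GiWi. GRIA4 made up 32.5, 33.5 and 39.4% of the class sum in YAPi, against 70.3 and 70.2% in GiWi. GRIA1 made up 41.2, 43.3 and 39.6% of the class sum in YAPi, against 7.76 and 8.92% in GiWi. GRIA2 made up 4.64, 4.15 and 3.59% of the class sum in YAPi, against 16.03 and 14.7% in GiWi, so its part was smaller in every YAPi library than in either GiWi library. With only 3 and 2 libraries, an exact permutation test of such a share cannot give a two-sided p below 0.1, so no p is given.

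**Figure D2:**
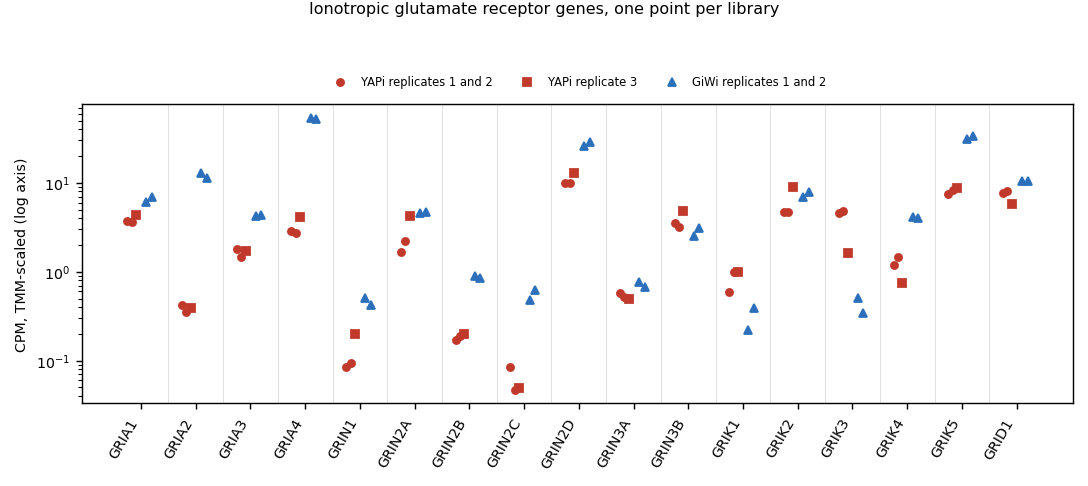
Level of 17 of the 18 ionotropic glutamate receptor genes (CPM, log axis) in the 3 YAPi libraries (red, with replicate 3 as a square) and the 2 GiWi libraries (blue triangles). GRIA2 and GRIA4 show the widest gaps with GiWi on top, GRIK3 and GRIK1 have YAPi on top, and GRIN2A and GRIK2 show YAPi replicate 3 near the GiWi points.

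NMDA receptors need the obligatory GRIN1 subunit. GRIN1 had only 0.085, 0.094 and 0.198 CPM in YAPi, against 0.504 and 0.425 CPM in GiWi. It fell in YAPi (log2 fold change -1.88 ± 0.42, edgeR adjusted p = 0.0123, but 0.0943 without GiWi replicate 1 and 0.068 without GiWi replicate 2). All its levels were under 1 CPM. GRIN2D, the GluN2 subunit typical of early development, had 9.86, 9.89 and 12.9 CPM in YAPi, against 25.9 and 28.8 CPM in GiWi. It was the most abundant NMDA gene per kilobase in both groups and fell in YAPi (log2 fold change -1.33 ± 0.14, edgeR adjusted p = 0.000823). GRIN2B, a GluN2 subunit of the forebrain, had 0.17, 0.188 and 0.198 CPM in YAPi, against 0.896 and 0.85 CPM in GiWi. The groups were apart, with a fall in YAPi (log2 fold change -2.22 ± 0.24, edgeR adjusted p = 0.001). GRIN2C, a GluN2 subunit known from the cerebellum, had 0.085, 0.047 and 0.0494 CPM in YAPi, against 0.485 and 0.618 CPM in GiWi. It fell as well (log2 fold change -3.12 ± 0.38, edgeR adjusted p = 0.00143). GRIN1, GRIN2B and GRIN2C reached the test only through their GiWi counts, so their p-values are given as descriptions.

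GRIN2A, the GluN2 subunit of the mature forebrain, had 1.68, 2.21 and 4.2 CPM in YAPi, against 4.53 and 4.73 CPM in GiWi. YAPi replicate 3 lay near the GiWi libraries and the gene was not called (log2 fold change -0.78 ± 0.38, edgeR adjusted p = 0.131), while without YAPi replicate 3 the log2 fold change was -1.26 and the edgeR adjusted p 4.76e-08. GRIN3B, a modulatory subunit of motor neurons, had 3.53, 3.22 and 4.82 CPM in YAPi, against 2.54 and 3.13 CPM in GiWi and was not called (log2 fold change 0.44 ± 0.23, edgeR adjusted p = 0.144). GRIN3A, the other modulatory subunit, stayed under 1 CPM in every library and was not called. The NMDA genes summed to 3.28, 3.22 and 4.46 CPM per kilobase in YAPi, against 6.68 and 7.44 CPM per kilobase in GiWi, of which GRIN2D made up 59.2, 60.6 and 56.97% of the class sum in YAPi, against 76.5 and 76.3% in GiWi. GRIN3B made up 32.9, 30.6 and 33.05% of the class sum in YAPi, against 11.6 and 12.9% in GiWi.

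Kainate receptors are built from GRIK1 to GRIK3, which can form channels alone, and from GRIK4 and GRIK5, which need one of those as a partner. GRIK5 had 7.5, 8.37 and 8.8 CPM in YAPi, against 31.2 and 33.7 CPM in GiWi. It was the most abundant kainate gene in both groups and fell in YAPi (log2 fold change -1.98 ± 0.09, edgeR adjusted p = 6.54e-05). GRIK4 had 1.19, 1.46 and 0.742 CPM in YAPi, against 4.12 and 4.02 CPM in GiWi. It fell too (log2 fold change -1.84 ± 0.28, edgeR adjusted p = 0.00312), so both partner-dependent subunits were lower in YAPi.

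The channel-forming kainate genes did not follow them. GRIK3 had 4.63, 4.84 and 1.63 CPM in YAPi, against 0.504 and 0.348 CPM in GiWi. It rose in YAPi (log2 fold change 3.11 ± 0.58, edgeR adjusted p = 0.00629, but 0.0636 without GiWi replicate 2), although replicate 3 was well below the other YAPi libraries. GRIK1 had 0.595, 0.987 and 0.989 CPM in YAPi, against 0.224 and 0.386 CPM in GiWi and rose from a low level (log2 fold change 1.48 ± 0.39, edgeR adjusted p = 0.0217, but 0.0619 without YAPi replicate 2, 0.139 without GiWi replicate 1 and 0.0556 without GiWi replicate 2). GRIK2 had 4.67, 4.7 and 8.88 CPM in YAPi, against 6.87 and 7.81 CPM in GiWi. Its groups overlapped, with YAPi replicate 3 the highest library (log2 fold change -0.27 ± 0.31, edgeR adjusted p = 0.485), and without YAPi replicate 3 the log2 fold change was -0.64 and the edgeR adjusted p 7.79e-06. Summed per kilobase, kainate genes gave 3.94, 4.33 and 4.87 CPM per kilobase in YAPi, against 11.2 and 12.1 CPM per kilobase in GiWi, of which GRIK5 made up 54.2, 55.04 and 51.5% of the class sum in YAPi, against 79.6 and 79.5% in GiWi.

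GRID1, a delta receptor gene whose product binds synaptic organisers more than glutamate, had 7.73, 8.15 and 5.83 CPM in YAPi, against 10.4 and 10.5 CPM in GiWi. It fell in YAPi (log2 fold change -0.53 ± 0.16, edgeR adjusted p = 0.032, but 0.0612 without YAPi replicate 1, 0.134 without GiWi replicate 1 and 0.146 without GiWi replicate 2).

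Metabotropic glutamate receptors showed no common direction, with 3 of 7 tested genes higher in YAPi, 1 lower and 3 not called. That is 42.9% higher and 14.3% lower, beside 30.2% and 26.9% of all genes tested. GRM6, the receptor of retinal ON bipolar cells, had 1.61, 1.03 and 0.445 CPM in YAPi, against 0 and 0 CPM in GiWi. With 0 counts in both GiWi libraries it was at least 37.3-fold higher in YAPi, taking 3 counts over the GiWi group as the floor (edgeR adjusted p = 0.00576). It reached the test only through its YAPi counts, so its p-value is given as a description. GRM4, a presynaptic receptor, had 0.659, 0.447 and 0.791 CPM in YAPi, against 0.224 and 0.309 CPM in GiWi and rose (log2 fold change 1.24 ± 0.36, edgeR adjusted p = 0.0305, but 0.075 without YAPi replicate 1, 0.185 without GiWi replicate 1 and 0.101 without GiWi replicate 2). GRM2, a presynaptic receptor that lowers cyclic AMP, had 0.531, 0.376 and 0.124 CPM in YAPi, against 4.14 and 3.63 CPM in GiWi. Here GiWi was higher in each library and the gene fell in YAPi (log2 fold change -3.47 ± 0.47, edgeR adjusted p = 0.00203). GRM7, also presynaptic, had 1.32, 1.18 and 2.05 CPM in YAPi, against 1.06 and 1.005 CPM in GiWi and was not called (log2 fold change 0.55 ± 0.30, edgeR adjusted p = 0.166). Eye-field and neural progenitor markers had 9 of 10 tested genes higher in YAPi and 1 lower, with a sum of 196.3, 200.5 and 165.6 CPM in YAPi, against 254.8 and 255.1 CPM in GiWi. The lower gene, NES, an intermediate filament, alone gave 93.6, 95.2 and 72.4 CPM in YAPi, against 252.5 and 253.1 CPM in GiWi. Without it the sum was 102.7, 105.4 and 93.3 CPM in YAPi, against 2.26 and 1.95 CPM in GiWi, so that YAPi was then the higher. The part of these markers in the GRM6 level was not tested.

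GABA-A receptors are pentamers, usually of alpha and beta subunits with a further kind. Of 19 genes, 14 were tested, 3 rose in YAPi, 4 fell and 7 were not called. That is 21.4% higher and 28.6% lower, beside 30.2% and 26.9% of all genes tested. GABRB2, a beta subunit, had 4.57, 4.98 and 4.75 CPM in YAPi, against 19.5 and 16.5 CPM in GiWi. It fell in YAPi (log2 fold change -1.92 ± 0.10, edgeR adjusted p = 0.000116). GABRA2, an alpha subunit of the forebrain, had 9.65, 10.6 and 10.8 CPM in YAPi, against 14.9 and 13.6 CPM in GiWi. Its groups were apart by a small step (log2 fold change -0.46 ± 0.09, edgeR adjusted p = 0.00722, but 0.068 without GiWi replicate 1).

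The alpha subunits GABRA4 and GABRA3, and the rho subunit GABRR2, were higher in YAPi. GABRA4, an alpha subunit of extrasynaptic receptors in thalamus, had 3.06, 3.01 and 1.63 CPM in YAPi, against 0.168 and 0.174 CPM in GiWi. It rose (log2 fold change 3.89 ± 0.41, edgeR adjusted p = 0.000846). GABRA3 had 0.892, 0.776 and 1.83 CPM in YAPi, against 0 and 0 CPM in GiWi. With 0 counts in both GiWi libraries, it was at least 40.2-fold higher in YAPi, taking 3 counts over the GiWi group as the floor (edgeR adjusted p = 0.00284). GABRA3 reached the test only through its YAPi counts, so its p-value is given as a description. The same holds for GABRA4, and for GABRR2, given next. GABRR2, a rho subunit known from the retina, had 0.786, 0.705 and 0.42 CPM in YAPi, against 0.0933 and 0.213 CPM in GiWi. It rose from near the detection floor (log2 fold change 2.05 ± 0.48, edgeR adjusted p = 0.015, but 0.1 without GiWi replicate 1), and the log2 fold change was 2.74 without GiWi replicate 2.

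GABRG3, a gamma subunit, had 0.127, 0.141 and 0.321 CPM in YAPi, against 0.28 and 0.29 CPM in GiWi. It was not called over all libraries (log2 fold change -0.55 ± 0.48, edgeR adjusted p = 0.365), and without YAPi replicate 3 the log2 fold change was -1.07 and the edgeR adjusted p 0.0344. GABRE, the epsilon subunit, had 6.23, 5.78 and 4.85 CPM in YAPi, against 5.11 and 5.27 CPM in GiWi. Its groups overlapped (log2 fold change 0.11 ± 0.14, edgeR adjusted p = 0.518). GABRB1, a further beta subunit, had 0.829, 0.87 and 1.29 CPM in YAPi, against 0.802 and 0.889 CPM in GiWi, which also overlapped, and GABRA5 stayed under 1 CPM throughout.

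GABRP, the pi subunit, known from uterus and other epithelia, had 3.23, 2.94 and 48.2 CPM in YAPi, against 2.24 and 2.13 CPM in GiWi. YAPi replicate 3 alone was high, and the gene was not called over all libraries (log2 fold change 3.05 ± 1.46, edgeR adjusted p = 0.126). Replicates 1 and 2 were above GiWi by far less, and without YAPi replicate 3 the log2 fold change was 0.50 and the edgeR adjusted p 0.00213. Through this 1 library GABRP made up 14.1, 12.7 and 69.2% of the class sum in YAPi, against 6.55 and 6.44% in GiWi. GABRP therefore ranked highest of all receptor genes per kilobase in YAPi, at 5.49 ± 7.89 CPM per kilobase (SD, n = 3), a mean smaller than its own spread. The class sum was 6.97, 7.02 and 21.1 CPM per kilobase in YAPi, against 10.4 and 10.02 CPM per kilobase in GiWi.

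Epithelial markers in replicate 3 did not move as a block. Over the 12 genes, 11 were called higher in YAPi and 1 was not, the sum was 3400, 3532 and 3970 CPM in YAPi, against 1884 and 2072 CPM in GiWi, and the median log2 difference of replicate 3 from replicates 1 and 2 was 0.13. Within that list KRT5, a basal keratin, had 8.44, 9.73 and 226.6 CPM in YAPi, against 1.12 and 1.28 CPM in GiWi. TP63, a transcription factor of basal epithelium, had 0.85, 1.03 and 21.3 CPM in YAPi, against 0.336 and 0.271 CPM in GiWi. These 2 genes were high in the same library as GABRP, whereas EPCAM, found on most simple epithelia, had 211.2, 204.9 and 111.2 CPM in YAPi, against 3.34 and 3.34 CPM in GiWi, and was lowest of its group there. KRT5 and TP63 were picked out after their values were seen, and their part in the GABRP level was not tested.

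**Figure D3:**
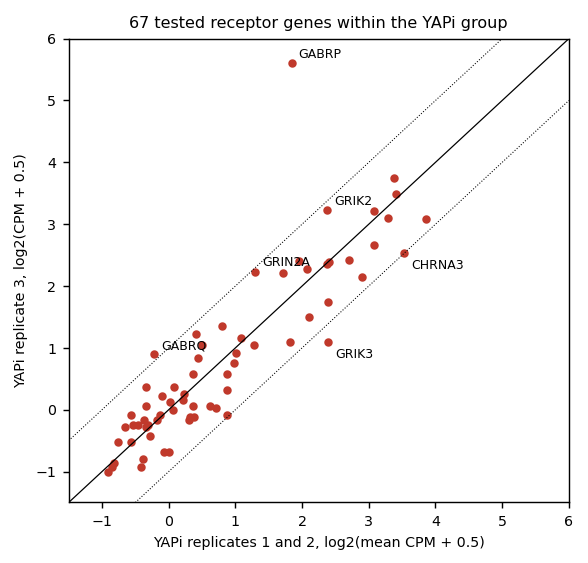
Level of the 67 tested receptor genes in YAPi replicate 3 (vertical axis) against the mean of YAPi replicates 1 and 2 (horizontal axis), both as log2(CPM + 0.5). The solid line marks equality and the dotted lines a 2-fold difference. GABRP lies far above the upper line, GABRQ just above it and GRIK3 below the lower one, while the other 64 lie between.

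On that scale, replicate 3 was at least 2-fold from replicates 1 and 2 for 3 receptor genes. That is 4.48% of the tested receptor genes, beside 4.64% of all tested genes. GABRP differed by 3.76 on the log2 scale, GABRQ by 1.12 and GRIK3 by -1.30. For GRIK3, the log2 fold change without YAPi replicate 3 was 3.46 and the edgeR adjusted p 2.98e-13. GABRQ, the theta subunit, had 0.382, 0.329 and 1.36 CPM in YAPi, against 0.69 and 0.908 CPM in GiWi, so that its groups overlapped (log2 fold change -0.22 ± 0.65, edgeR adjusted p = 0.79), and without YAPi replicate 3 the log2 fold change was -1.15 and the edgeR adjusted p 0.00118.

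The GABA-B receptor is an obligate pair. GABBR1 binds GABA and GABBR2 couples to the G protein and carries the pair to the surface. GABBR1 had 14.4, 13.7 and 7.94 CPM in YAPi, against 32.2 and 29.9 CPM in GiWi. It fell in YAPi (log2 fold change -1.37 ± 0.25, edgeR adjusted p = 0.00561), though the annotation lists 7 copies of it, among which reads may be split. GABBR2 had 1.68, 2.16 and 1.56 CPM in YAPi, against 0.0187 and 0 CPM in GiWi. GiWi held 1 count of it in all, a ratio of summed counts of 189.5 with an exact 95% counting interval of 33.7 to 7518, and the gene rose in YAPi (edgeR adjusted p = 0.000358). That p-value is given as a description, since GABBR2 reached the test only through its YAPi counts. So the partners moved in opposite directions, and GABBR2 was barely detected in GiWi.

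Among the glycine receptor genes only GLRB and GLRA2 had enough counts for a test. GLRB, the beta subunit that anchors the receptor, had 4.67, 4.65 and 4.65 CPM in YAPi, against 3.36 and 3.56 CPM in GiWi. Its YAPi libraries agreed closely and it rose by a small step (log2 fold change 0.43 ± 0.12, edgeR adjusted p = 0.023, but 0.0683 without YAPi replicate 1, 0.0754 without YAPi replicate 2, 0.143 without GiWi replicate 1 and 0.102 without GiWi replicate 2), and with library size alone as the scaling the edgeR adjusted p was 0.126. GLRA2, the fetal alpha subunit, stayed under 1 CPM in every library and was not called (log2 fold change 1.19 ± 0.46, edgeR adjusted p = 0.072).

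Nicotinic receptor genes moved in both directions. Of 16 genes, 13 were tested. Leaving out CHRND, which has no test here, 4 of 12 rose in YAPi, 2 fell and 6 were not called, which is 33.3% higher and 16.7% lower, beside 30.2% and 26.9% of all genes tested. Without YAPi replicate 3, 6 of the 11 then tested were called higher and 2 lower, beside 6721 higher and 6394 lower of 17519 genes. Fewer were called without GiWi replicate 1 or without GiWi replicate 2, as over all genes, with 1 library left in that group. The ganglionic type, which carries transmission in autonomic ganglia, is made mainly of CHRNA3 and CHRNB4, with CHRNA5 or CHRNB2 as optional partners. CHRNA3 had 10.8, 11.2 and 5.32 CPM in YAPi, against 1.68 and 1.78 CPM in GiWi. It rose in YAPi (log2 fold change 2.40 ± 0.37, edgeR adjusted p = 0.00325), with replicate 3 again the lowest of its group. Without YAPi replicate 3 the log2 fold change of CHRNA3 was 2.67 and the edgeR adjusted p 4.91e-15. CHRNB4 had 5.01, 4.49 and 2.84 CPM in YAPi, against 1.88 and 1.51 CPM in GiWi. It rose by less (log2 fold change 1.28 ± 0.29, edgeR adjusted p = 0.0129, but 0.0612 without GiWi replicate 1 and 0.102 without GiWi replicate 2). CHRNB2, the beta subunit of most brain receptors, had 1.44, 1.6 and 1.38 CPM in YAPi, against 0.485 and 0.754 CPM in GiWi and rose (log2 fold change 1.25 ± 0.26, edgeR adjusted p = 0.0098, but 0.0686 without GiWi replicate 1). CHRNA5 had 1.4, 1.55 and 1.19 CPM in YAPi, against 1.57 and 1.18 CPM in GiWi, with overlapping groups (log2 fold change 0.01 ± 0.23, edgeR adjusted p = 0.98).

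Autonomic neuron markers were mixed. Of 5 tested, 3 rose in YAPi and 2 fell, with a sum of 366.2, 364.5 and 158.7 CPM in YAPi, against 129.2 and 134.8 CPM in GiWi. CHGA, a protein of secretory granules, alone gave 269.1, 266.5 and 67.6 CPM in YAPi, against 0.522 and 0.754 CPM in GiWi. Without it the sum was 97.2, 98.05 and 91.1 CPM in YAPi, against 128.6 and 134.1 CPM in GiWi, so that GiWi was then the higher. PHOX2A, a transcription factor of autonomic neurons, did not exceed 0.0742 CPM in YAPi and was at 0 in GiWi. Glia and neural crest markers had 5 of 8 tested genes higher in YAPi and none lower, with a sum of 134.8, 131 and 111.2 CPM in YAPi, against 25.9 and 25.2 CPM in GiWi, and FOXD3 and OLIG1 at 0 throughout.

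Muscle-type nicotinic receptors join CHRNA1 and CHRNB1 with CHRND and either CHRNG, in the fetus, or CHRNE, in the adult. CHRND had 0.34, 0.306 and 0.247 CPM in YAPi, against 1.94 and 2.32 CPM in GiWi. Each YAPi library was below each GiWi library (log2 fold change -2.82 ± 0.23, no test). CHRNG had 0.0637, 0 and 0 CPM in YAPi, against 0.41 and 0.464 CPM in GiWi. YAPi held 3 counts of it in all, a ratio of summed counts of 0.0528 with an exact 95% counting interval of 0.0105 to 0.164, and the gene fell (edgeR adjusted p = 0.00853, but 0.0568 without GiWi replicate 1 and 0.0655 without GiWi replicate 2). CHRNG reached the test only through its GiWi counts, so its p-value is given as a description. CHRNE had 0.34, 0.517 and 0.668 CPM in YAPi, against 0.448 and 0.386 CPM in GiWi, with overlapping groups (log2 fold change 0.28 ± 0.36, edgeR adjusted p = 0.538).

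CHRNA1 and CHRNB1 were higher in each YAPi library than in GiWi. CHRNA1 had 0.85, 0.752 and 0.42 CPM in YAPi, against 0.0373 and 0 CPM in GiWi. GiWi held 2 counts of it, a ratio of summed counts of 36.05 with an exact 95% counting interval of 9.69 to 302.3, and it rose in YAPi (edgeR adjusted p = 0.00359). That p-value is given as a description, since CHRNA1 reached the test only through its YAPi counts. CHRNB1 had 9.86, 8.58 and 8.11 CPM in YAPi, against 7.46 and 7.54 CPM in GiWi. It was the most abundant nicotinic gene per kilobase and was not called (log2 fold change 0.24 ± 0.11, edgeR adjusted p = 0.121), while without YAPi replicate 3 the log2 fold change was 0.30 and the edgeR adjusted p 0.00469. CHRNA1 was thus under the floor of 3 counts in each GiWi library, where CHRND and CHRNG were higher than in YAPi.

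Skeletal muscle markers stood beside this. Of 9 tested, 1 rose in YAPi, 2 fell and 6 were not called, with a sum of 46.2, 44.9 and 22.99 CPM in YAPi, against 101.7 and 106.8 CPM in GiWi. Most of that sum was CKM, the muscle creatine kinase that cardiac muscle also makes, with 41.1, 40.3 and 11.8 CPM in YAPi, against 94.2 and 99.4 CPM in GiWi. Without CKM the sum was 5.12, 4.61 and 11.2 CPM in YAPi, against 7.46 and 7.5 CPM in GiWi, with overlapping groups. MYF5 was at 0 in every library and MYOD1 did not exceed 0.0247 CPM in YAPi and 0.0773 CPM in GiWi. The part of muscle cells in the CHRND and CHRNG levels was not tested.

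**Figure D4:**
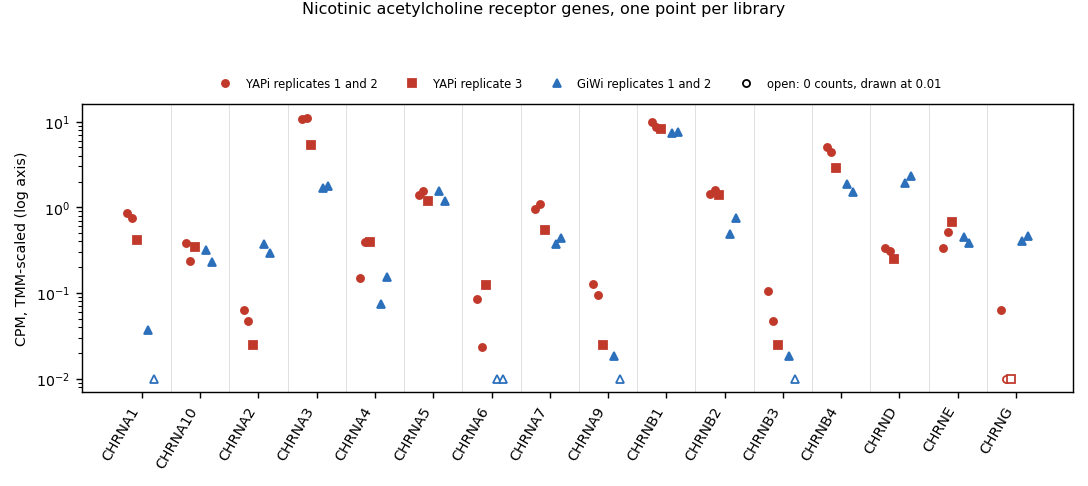
Level of each nicotinic receptor gene (CPM, log axis) in the 3 YAPi libraries (red, with replicate 3 as a square) and the 2 GiWi libraries (blue triangles), with open symbols for libraries at 0 counts, drawn at 0.01. CHRNA3, CHRNB4, CHRNB2 and CHRNA1 have YAPi on top, CHRND, CHRNG and CHRNA2 have GiWi on top, and CHRNB1 and CHRNA5 are nearly level.

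CHRNA7, which forms the homomeric alpha-bungarotoxin site, had 0.956, 1.1 and 0.544 CPM in YAPi, against 0.373 and 0.444 CPM in GiWi. The groups were apart, the test just missed its threshold (log2 fold change 1.09 ± 0.37, edgeR adjusted p = 0.0501), and without YAPi replicate 3 the log2 fold change was 1.33 and the edgeR adjusted p 8.51e-05. Its exons are shared with the near-identical fusion gene CHRFAM7A, so its count is uncertain. CHRNA2 had 0.0637, 0.047 and 0.0247 CPM in YAPi, against 0.373 and 0.29 CPM in GiWi, all under 1 CPM, and fell (log2 fold change -2.78 ± 0.45, edgeR adjusted p = 0.00392). CHRNA2 reached the test only through its GiWi counts, so its p-value is given as a description. CHRNA10 and CHRNA4 stayed under 1 CPM and were not called over all libraries (log2 fold change 1.43 ± 0.61, edgeR adjusted p = 0.0933, but 0.0338 without YAPi replicate 1 for CHRNA4). Summed per kilobase, nicotinic genes gave 11.4, 10.8 and 7.74 CPM per kilobase in YAPi, against 6.32 and 6.22 CPM per kilobase in GiWi, a class sum that was higher in each YAPi library than in GiWi.

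Of the serotonin receptors coupled to G proteins, 8 of 12 were tested, 3 rose in YAPi, 2 fell and 3 were not called. Beside these counts, 30.2% of all genes tested were called higher and 26.9% lower, and the difference was not tested. HTR2A, the receptor through which serotonin contracts smooth muscle, had 0.255, 0.329 and 0.791 CPM in YAPi, against 4.4 and 4.12 CPM in GiWi. It fell (log2 fold change -3.22 ± 0.45, edgeR adjusted p = 0.00219), and without YAPi replicate 3 the log2 fold change was -3.86 and the edgeR adjusted p 3.11e-13. HTR4, through which serotonin stimulates human atrial muscle, had 0.297, 0.235 and 0.0742 CPM in YAPi, against 1.04 and 1.2 CPM in GiWi. It fell also (log2 fold change -2.44 ± 0.47, edgeR adjusted p = 0.00708, but 0.0609 without GiWi replicate 2). HTR2B, needed for heart development in mice, had 1.23, 1.03 and 0.519 CPM in YAPi, against 0.952 and 0.908 CPM in GiWi, and HTR1B had 1.34, 1.32 and 0.989 CPM in YAPi, against 1.25 and 1.14 CPM in GiWi. Groups overlapped for both, and neither was called (log2 fold change 0.00 ± 0.38, edgeR adjusted p = 0.994 for HTR2B).

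The serotonin genes that rose all belong to the HTR1 group, which inhibits adenylyl cyclase, and all were under 1 CPM. HTR1E had 0.701, 0.611 and 0.618 CPM in YAPi, against 0.261 and 0.135 CPM in GiWi (log2 fold change 1.68 ± 0.35, edgeR adjusted p = 0.00986, but 0.0701 without GiWi replicate 2). HTR1D had 0.297, 0.282 and 0.544 CPM in YAPi, against 0.131 and 0.0193 CPM in GiWi (log2 fold change 2.26 ± 0.71, edgeR adjusted p = 0.0389, but 0.0616 without YAPi replicate 1, 0.0595 without YAPi replicate 2 and 0.157 without GiWi replicate 2), and the log2 fold change was 4.09 without GiWi replicate 1 and 1.49 without GiWi replicate 2. HTR1A had 0.467, 0.541 and 0.124 CPM in YAPi, against 0.0373 and 0 CPM in GiWi, with 2 counts in GiWi, a ratio of summed counts of 20.2 with an exact 95% counting interval of 5.32 to 171.8 (edgeR adjusted p = 0.0208, but 0.0579 without GiWi replicate 1 and 0.114 without GiWi replicate 2). HTR1A, HTR1D and HTR1E reached the test only through their YAPi counts, so their p-values are given as descriptions. All 3 calls were lost without at least 1 library.

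Dopamine receptors fall into D1-like genes (DRD1, DRD5), which raise cyclic AMP, and D2-like genes (DRD2, DRD3, DRD4), which lower it. DRD1 had 0.467, 0.564 and 0.593 CPM in YAPi, against 15.2 and 13.2 CPM in GiWi. It was among the 5 most abundant receptor genes per kilobase in GiWi and was far lower in each YAPi library (log2 fold change -4.71 ± 0.15, no test). DRD2 had 0.85, 0.987 and 1.56 CPM in YAPi, against 0.336 and 0.464 CPM in GiWi. It rose in YAPi (log2 fold change 1.49 ± 0.37, edgeR adjusted p = 0.0171, but 0.121 without GiWi replicate 1 and 0.0708 without GiWi replicate 2). DRD4 had 0.829, 0.752 and 0.544 CPM in YAPi, against 0.373 and 0.386 CPM in GiWi and rose by less than 2-fold (log2 fold change 0.90 ± 0.29, edgeR adjusted p = 0.0404, but 0.11 without YAPi replicate 1, 0.104 without YAPi replicate 2, 0.188 without GiWi replicate 1 and 0.173 without GiWi replicate 2). DRD3 and DRD5 had too few counts for a test. DRD1 made up 12.01, 14.8 and 14.96% of the class sum in YAPi, against 91.5 and 89.6% in GiWi. DRD4 made up 52.9, 49.1 and 34.1% of the class sum in YAPi, against 5.58 and 6.51% in GiWi, and DRD2 27.4, 32.5 and 49.2% of the class sum in YAPi, against 2.54 and 3.94% in GiWi. Shares within a class depend on each other, so the lower DRD1 level by itself raises those of DRD4 and DRD2.

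**Figure D5:**
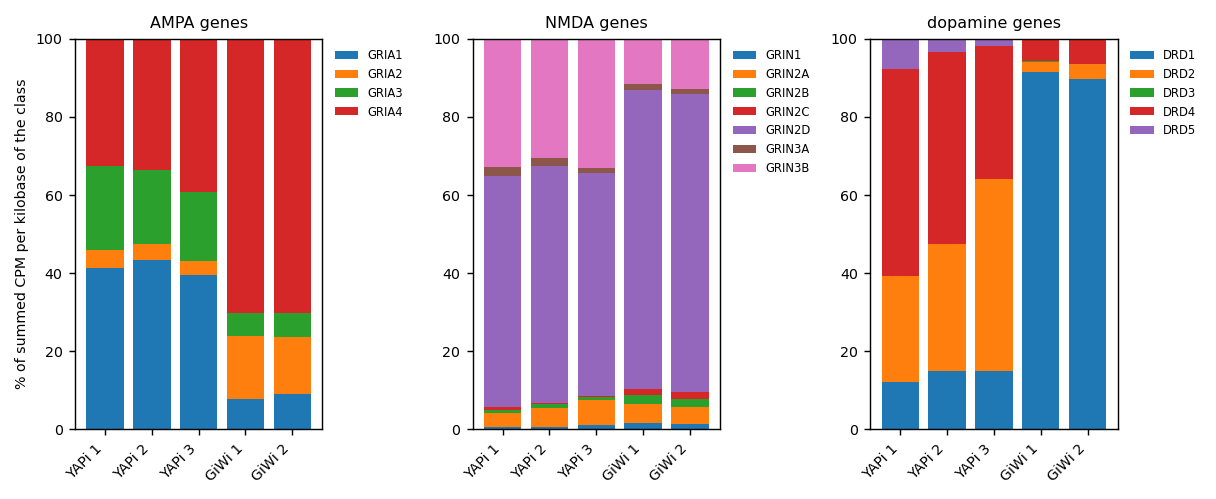
Share of each gene in the summed CPM per kilobase of the AMPA, NMDA and dopamine receptor genes (vertical axis, %), 1 bar per library with the 3 YAPi libraries on the left. GRIA4, GRIN2D and DRD1 take larger shares in both GiWi libraries than in any YAPi library, and GRIA1, GRIN3B, DRD2 and DRD4 take larger shares in YAPi. Shares within a class depend on each other, so a lower level of the main gene by itself raises the others.

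Receptor genes of 1 family often lie side by side, and 31 of the 90 fell into 11 groups of members less than 1 Mb apart in hg19. CHRND and CHRNG lie on chromosome 2 with 3062 bp between them (chr2:233390870-233401375 and chr2:233404437-233411038), and both were lower in YAPi. On chromosome 15, CHRNA5 (chr15:78857862-78887611, plus strand) ends 36 bp from CHRNA3 (chr15:78887647-78913637, minus strand), and CHRNB4 lies 2999 bp further on. CHRNA3 and CHRNB4 rose while CHRNA5 was not called. Whether counting used strand is not stated in the sources used here, so reads past the ends of these facing genes could be counted for either.

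Neighbours in the GABA-A groups did not always move together. On chromosome 4, GABRA4 rose and GABRA2, 528832 bp away, fell, while GABRB1 was not called and GABRG1 had too few counts. On chromosome 15, GABRA5 and GABRG3 were not called. On the X chromosome, GABRA3 rose between GABRE and GABRQ, neither of which was called. GLRB and GRIA2, of different families, lie 48494 bp apart on chromosome 4, and GLRB rose where GRIA2 was lower.

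Genes that work with the receptors were examined as lists of 88 genes in all, of which 76 were tested. In YAPi 31 rose and 29 fell, beside 30.2% and 26.9% of all genes tested. The median log2 fold change was 0.01. Fewer were called lower without GiWi replicate 1 or without GiWi replicate 2, where fewer of all genes were called too. The 44 tested receptor partners, which include auxiliary subunits and scaffolds, had 12 higher and 21 lower, with a median of -0.35. That is 27.3% higher and 47.7% lower, beside 30.2% and 26.9% of all genes tested, and the difference was not tested. Lower genes included DLG4, the scaffold of excitatory synapses, with 24.1, 23.5 and 24.4 CPM in YAPi, against 34.2 and 34.6 CPM in GiWi (log2 fold change -0.52 ± 0.05, edgeR adjusted p = 0.000778). SHANK1, another scaffold of these synapses, had 4.87, 4.28 and 6.92 CPM in YAPi, against 30.2 and 31.4 CPM in GiWi (log2 fold change -2.53 ± 0.20, edgeR adjusted p = 0.000333). GRIP1, which binds AMPA subunits, had 11.3, 10.4 and 10.1 CPM in YAPi, against 25.3 and 23.6 CPM in GiWi (log2 fold change -1.20 ± 0.08, edgeR adjusted p = 0.000193). DLG2 and PICK1, which also bind glutamate receptors, fell with log2 fold changes of -1.60 and -0.65.

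Partners that rose were led by KCTD16, an auxiliary subunit of GABA-B receptors, with 27.8, 28.2 and 27.1 CPM in YAPi, against 6.66 and 6.67 CPM in GiWi (log2 fold change 2.06 ± 0.06, edgeR adjusted p = 2.56e-05). NETO2, an auxiliary subunit of kainate receptors, had 40.1, 37.6 and 43.8 CPM in YAPi, against 15.5 and 14.4 CPM in GiWi (log2 fold change 1.44 ± 0.09, edgeR adjusted p = 0.000157). LYPD1, which binds nicotinic receptors, had 16.6, 18.5 and 17.6 CPM in YAPi, against 4.25 and 5.29 CPM in GiWi (log2 fold change 1.88 ± 0.12, edgeR adjusted p = 0.000199). SHANK2, a relative of SHANK1, and DOK7, an adaptor of the neuromuscular junction, rose with log2 fold changes of 3.86 and 1.27. SHANK1 and SHANK2 thus moved in opposite directions.

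Of 32 tested genes that make, clear or carry transmitters, 19 were called higher in YAPi and 8 lower, with a median log2 fold change of 0.77. That is 59.4% higher and 25% lower, beside 30.2% and 26.9% of all genes tested, and the difference was not tested. The glutamate transporters SLC1A1 and SLC1A3 and the glycine transporter SLC6A9 rose with log2 fold changes of 2.10, 1.30 and 0.63. Of the acetylcholine genes, ACHE and SLC5A7 fell, BCHE and SLC18A3 were not called, and CHAT had too few counts for a test. ACHE, which breaks down acetylcholine, had 1.57, 1.32 and 1.04 CPM in YAPi, against 4.89 and 4.83 CPM in GiWi (log2 fold change -1.89 ± 0.20, edgeR adjusted p = 0.000898). SLC5A7, the choline transporter of cholinergic nerve endings, had 0, 0 and 0.198 CPM in YAPi, against 2.16 and 1.62 CPM in GiWi (log2 fold change -4.87 ± 0.97, edgeR adjusted p = 0.00822). It reached the test only through its GiWi counts, so that p-value is given as a description. SRR, which makes D-serine for NMDA receptors, SLC6A13, a GABA transporter, and PNMT, which makes adrenaline, also fell.

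Other cell types differed between the cultures. Macrophage markers had 11 of 11 genes higher in YAPi, with a sum of 549.3, 563.7 and 243 CPM in YAPi, against 6.19 and 6.88 CPM in GiWi. Fibroblast markers had 7 of 10 higher and 3 lower, endothelial markers had 3 of 8 tested higher and 2 lower, and the 16 cardiomyocyte genes had 3 higher, 3 lower and 10 not called. Fibroblast markers summed to 106700, 109100 and 127500 CPM in YAPi, against 59850 and 60160 CPM in GiWi, and endothelial markers to 359.5, 379.2 and 453.6 CPM in YAPi, against 318.6 and 331.4 CPM in GiWi. The part of these cell types in the receptor levels was not tested.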

How the data were processed

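Polyadenylated RNA was sequenced from 5 libraries with a stranded mRNA kit on a HiSeq instrument, per the labels' protocols. Tools named in the submitters' processing notes, without their roles, are STAR 2.5.1, edgeR 3.16.1, FastQC 0.11.5 and HOMER, and the build named there is hg19. The authors deposited exon counts of 1 RefSeq transcript per symbol, which are treated here as an expected count, because values are multiples of 0.5 and 34.6% are not whole. They were rounded before testing. The authors also deposited FPKM values, which for 27 of the 90 receptor genes are of another transcript of the symbol. Levels per kilobase and subunit shares were therefore computed from the counts, although shares of FPKM had been planned.

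The members and all gene lists were chosen with earlier results of these data known. Genes with values in every library are those named in the opening and those at 1 CPM in the higher group, or called with a log2 fold change of at least 1 in size; of partners, the 5 higher and 5 lower with the smallest p per list. All 5 libraries were fitted with edgeR 4.0.16 in R 4.3.3 (quasi-likelihood F test), with TMM factors (0.964, 0.954 and 0.926 for YAPi, 1.1 and 1.07 for GiWi), genes kept by filterByExpr (at least 10 counts, total of at least 15) and p adjusted by Benjamini-Hochberg over 17634 genes, with a threshold of 0.05. SE is the size of the log2 fold change over the root of F. With a group at 0 counts, the bound uses 3 counts over the group. With 1 to 3 counts in a group, the ratio of sums has an exact 95% interval. Bounds and intervals cover counting error only. The edgeR step was tested on simulated data. DESeq2 1.42.0 and limma 3.58.1 were alternatives. Figures were drawn with matplotlib 3.10.9. The closest YAPi pair and the GiWi pair differed by more than sampling noise (chi-square per degree of freedom 2.13 and 5.89). The planned comparison of protein sequences was not run. Some genes are counted in the totals but not reported here by name. Sums of marker lists without their most abundant gene, and class counts without the 3 genes that have no test, were chosen after seeing the data.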

Additional observations from a re-analysis of the deposited data

How the results depend on the processing

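Of 43 receptor genes called, GRIA2, DRD1 and CHRND included, 21 kept the call under every alternative that tested them, and 22 lost it under at least 1. GRIA2, DRD1 and CHRND, described above with no test, are within both the 43 and the 21, so their part of those counts is not evidence. The 7 that changed direction were not called over all libraries. Leaving out each library in turn gave 5909 to 13115 genes called, 9 to 22 receptor genes higher in YAPi, 18 to 28 lower, 26 to 31 partner and transmitter genes higher and 15 to 31 lower. Leaving out a GiWi library leaves that group with 1 library, assumed to vary like the others. With a filter of at least 1 CPM in 2 libraries, which tested 37 receptor genes, 8 were higher. With library size alone as the scaling, the median over all genes shifted to -0.181 and 35.8% of called genes were higher, against 52.9% with TMM; 38% were higher with limma on log2(FPKM + 1) and 39.7% on log2(FPKM + 0.1), where the median was -0.123. Under these 3, receptor genes called higher and lower numbered 17 and 24, 13 and 23, and 17 and 24. The replicate number as a block called 13576 genes and 51 receptor genes, 43 of them shared with the fit without it. YAPi replicate 3 has no partner there and drops out of the contrast, and same-numbered deviations correlated at 0.065, so the numbers are not shown to pair the libraries.

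Log2 fold changes that changed sign were of members not called, and the cause was not tested. CHRNA5 ranged between -0.187 and 0.223 with libraries left out in turn and was -0.185 with library size alone, -0.0328 with limma on log2(FPKM + 1) and -0.099 with limma on log2(FPKM + 0.1). GABRE ranged between 0.0435 and 0.212 with libraries left out in turn and was -0.0762 with library size alone, -0.0193 with limma on log2(FPKM + 1) and -0.0334 with limma on log2(FPKM + 0.1). GABRQ ranged between -1.15 and 0.115 with libraries left out in turn. GRM8 ranged between -0.53 and 0.0123 with libraries left out in turn. HTR1B ranged between -0.0445 and 0.152 with libraries left out in turn and was -0.166 with library size alone, -0.0271 with limma on log2(FPKM + 1) and -0.0897 with limma on log2(FPKM + 0.1). HTR2B ranged between -0.246 and 0.291 with libraries left out in turn and was -0.183 with library size alone, -0.00114 with no filter, -0.0389 with limma on log2(FPKM + 1) and -0.15 with limma on log2(FPKM + 0.1). HTR7 ranged between -0.373 and 0.0122 with libraries left out in turn and was 0.0137 with the replicate block. Depth limits the members under 1 CPM, where a few counts decide a value.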
